A study of Cunninghamia lanceolata with 2 samples.

Results

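The expression of phosphate transporters of the PHS family was measured by RNA-seq in Chinese fir (Cunninghamia lanceolata), a conifer grown for timber. The members described here are 10 genes out of 20 that the deposited table annotates as inorganic phosphate transporters of this family, among 32731 assembled genes in all. They were chosen by the mean of their low-phosphorus and control levels in RPKM (reads scaled to gene length and library depth), as the 10 PHS genes with the highest mean. The levels below are therefore a description, and no test was made on them. Plantlets were first raised for 1 month in dilute Hoagland nutrient solution. They were then grown for 4 months either on low phosphorus, 0.01 mM (LP), or on sufficient phosphorus, 1 mM, as the control (CK). Roots of each group gave 1 library, and the labels do not give how many plants went into it. "Higher" and "lower" below describe these 2 libraries, and intervals are 95% intervals that cover counting error only.

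Plant PHS transporters sit mainly in the plasma membrane of root cells and carry phosphate inward together with protons, along the proton gradient that the plasma membrane proton pump maintains. In Arabidopsis, where they are called PHT1, several of these genes are transcribed more strongly when phosphate runs short. Newly made PHT1 proteins leave the endoplasmic reticulum with the help of the factor PHF1, and the ubiquitin-conjugating enzyme PHO2 restrains uptake by promoting the breakdown of transport proteins. The family shares its fold with other members of the major facilitator superfamily (MFS), which includes sugar and nitrate carriers.

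Estimated reads summed to 48502899 in LP and to 17848911 in CK, so a gene at the same level would have 2.72 times as many reads in LP. Lists of marker genes were read from the annotation text. Root terms matched 86 genes that summed to 3508 RPKM in LP roots and 3501 RPKM in CK roots, with 10 past 2-fold upward in LP and 16 downward. Photosystem, antenna and Rubisco terms, markers of green shoot tissue, matched 75 genes that summed to 720 RPKM in LP roots and 1109 RPKM in CK roots, with 5 upward and 11 downward. Most of the difference between these sums lay in 1 gene. It was comp24767_c0, the photosystem II PsbA protein, with 49.09 RPKM in LP roots and 433.66 RPKM in CK roots. No gene carried the product name chitin synthase, septin or hydrophobin, which would mark a fungus. A wider search for fungal terms found 7 genes, which summed to 167 RPKM in LP roots and 180 RPKM in CK roots, with 4 upward, 2 of them at 0 reads in CK, and none downward. One of the 7, phosphomevalonate kinase comp13659_c0, matched through an ergosterol term and not by a name particular to fungi. It had 11.26 RPKM in LP roots and 14.65 RPKM in CK roots. Terms for the biosynthesis of bacterial peptidoglycan or lipopolysaccharide, some of which plants also carry, matched 32 genes at 138 RPKM in LP roots and 159.5 RPKM in CK roots, with none upward and 3 downward. A wider pattern of 36 genes summed to 357 RPKM in LP roots and 299 RPKM in CK roots, of which comp5874_c0, a catechol O-methyltransferase, held 139.55 RPKM in LP roots and 77.07 RPKM in CK roots. The part of these tissues or organisms in the transporter levels was not tested.

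Each of the 10 transporters was higher in LP by 2-fold or more. Together they reached 1831 RPKM in LP roots against 188.6 RPKM in CK roots, 9.71 times as much. In reads, they took 0.222% of the LP library and 0.0374% of the CK library. The median log2 ratio of the 10 genes, taken on RPKM with 1 added to each value, was 3.41, and single genes ranged from 1.13 to 8.42. For comparison, 8.68% of the 30843 genes whose mean reached 1 RPKM (kept genes) passed 2-fold upward in LP and 16.2% passed it downward, with a median of -0.16. Among the 8570 genes at least as abundant as the least abundant of the 10, 8.37% passed 2-fold upward in LP. Since the mean that selected the genes is made of the same 2 levels, nothing is read from the members' count against these shares. Bulk root RNA does not tell apart more transporter RNA per cell from more cells of the kinds that express it.

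**Figure D1:**
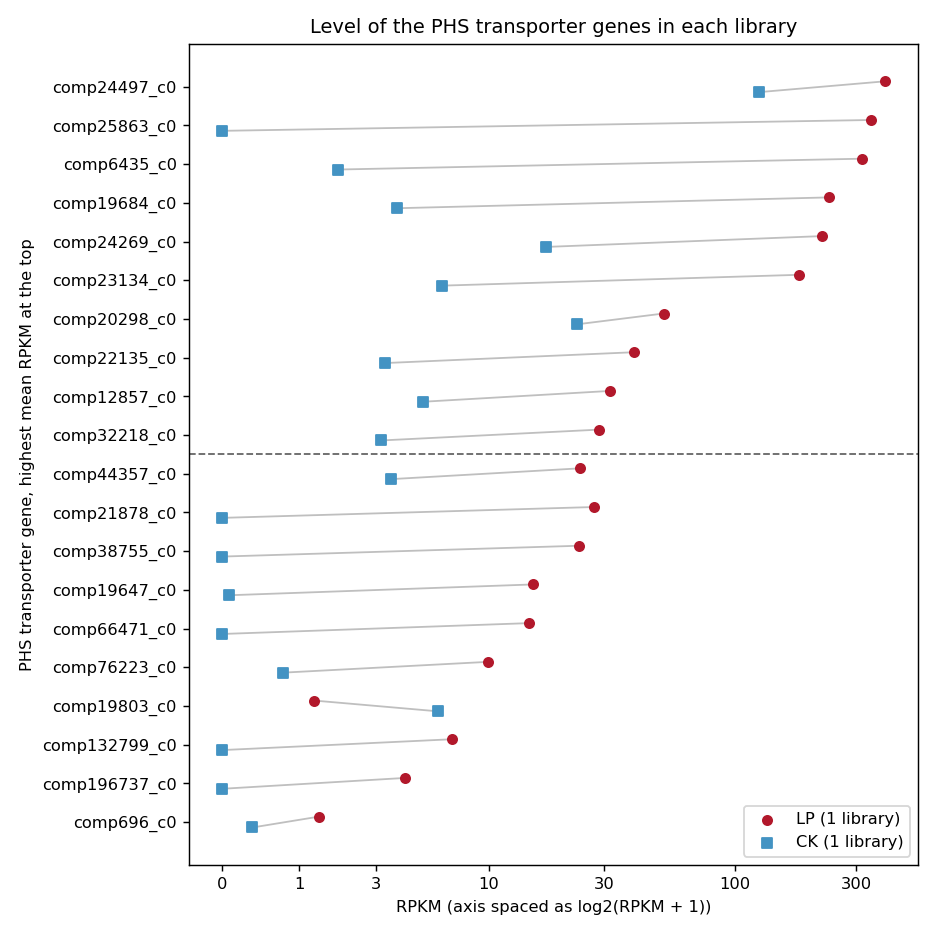
Level of each of the 20 PHS genes in LP (red circles) and CK (blue squares), in RPKM on an axis spaced as log2(RPKM + 1), ordered by mean level, with a dashed line under the 10 genes described. The LP point lies to the right of the CK point in 19 rows, and comp19803_c0, at 1.28 RPKM in LP roots and 5.99 RPKM in CK roots, is the exception.

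The most abundant transporter in both libraries was comp24497_c0, a single assembled transcript of 2218 bases and the longest of the 10. It had 389.79 RPKM in LP roots and 124.47 RPKM in CK roots, on 43147 LP reads and 5048 CK reads. It was thus 3.13-fold higher in LP (interval 3.04 to 3.23), the second smallest fold of the 10. It was also the only member above 100 RPKM in CK roots.

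The smallest fold belonged to comp20298_c0, a transcript of 1840 bases. This gene had 52.06 RPKM in LP roots and 23.32 RPKM in CK roots, 2.23-fold higher (2.07 to 2.41). The pair comp24497_c0 and comp20298_c0 had the 2 highest CK levels and the 2 smallest folds, and together reached 442 RPKM in LP roots against 148 RPKM in CK roots, 2.99 times as much. The other 8 transporters reached 1390 RPKM in LP roots against 40.8 RPKM in CK roots, 34.0 times as much. A fold has the CK level in its denominator, so an order by CK level and an order by fold are not independent of each other.

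The largest difference was that of comp25863_c0, which the table lists at 341.74 RPKM in LP roots and at 0 in CK. It had 10761 reads in LP and 0 in CK. At its LP level, a library of the CK depth would hold 3960 reads of it. A count of 0 allows up to 3 reads as a 1-sided 95% limit, and against 3 CK reads, per library total, the gene was at least 1320-fold higher in LP. Of all kept genes, 2.9% had 0 reads in CK. In LP it was the second most abundant transporter of the family.

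Next came comp6435_c0, which had 315.67 RPKM in LP roots and 1.83 RPKM in CK roots. The CK value rests on 13 reads, so its fold of 172 has a wide interval, 101 to 324. Of the 10 genes it is the one annotated in Gene Ontology (GO) with the cellular response to phosphate starvation, a term that 2 of the less abundant PHS genes also carry.

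Like these, comp19684_c0 was scarce in control roots, at 234.01 RPKM in LP roots and 3.80 RPKM in CK roots. It was 61.6-fold higher (48.4 to 79.8). By contrast, comp24269_c0, at 2100 bases one of the 3 members longer than 1800 bases, had a moderate CK level. It had 219.62 RPKM in LP roots against 17.39 RPKM in CK roots, 12.6-fold higher (11.7 to 13.7).

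For comp23134_c0 the size of the difference depends on the unit. Its levels were 178.26 RPKM in LP roots and 6.22 RPKM in CK roots, 28.7-fold higher (21.3 to 39.6). Its reads were 7293 in LP and 43 in CK, which per library total is 62.4-fold higher (46.3 to 86.3). The gene is a bundle of 6 assembled transcripts. Its reads and RPKM together imply a length of 844 bases in LP and 387 bases in CK, against a deposited effective length of 681.8 bases for both. In the other 8 members with CK reads, the folds from RPKM and from reads differed by 1.004 to 1.017 times.

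The 3 least abundant members were short and thinly read in CK, as was the more abundant comp6435_c0, at 450 bases and 13 CK reads. Gene comp22135_c0 (615 bases) had 39.80 RPKM in LP roots and 3.33 RPKM in CK roots, 11.95-fold higher (8.51 to 17.4). Gene comp12857_c0 (281 bases) had 31.82 RPKM in LP roots and 5.09 RPKM in CK roots, 6.25-fold higher (3.97 to 10.3), on 19.9 CK reads. These 2 genes and comp32218_c0 were far below the 6 leading transporters in LP, yet within the range of those genes in CK.

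The last member, comp32218_c0 (453 bases), had 28.70 RPKM in LP roots and 3.18 RPKM in CK roots, 9.03-fold higher (5.90 to 14.2). Its mean of 15.9 RPKM lay just inside the limit. Just outside were comp44357_c0, with 24.08 RPKM in LP roots and 3.55 RPKM in CK roots (mean 13.8 RPKM), and comp21878_c0, with 27.35 RPKM in LP roots and 0 in CK (mean 13.7 RPKM).

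**Figure D2:**
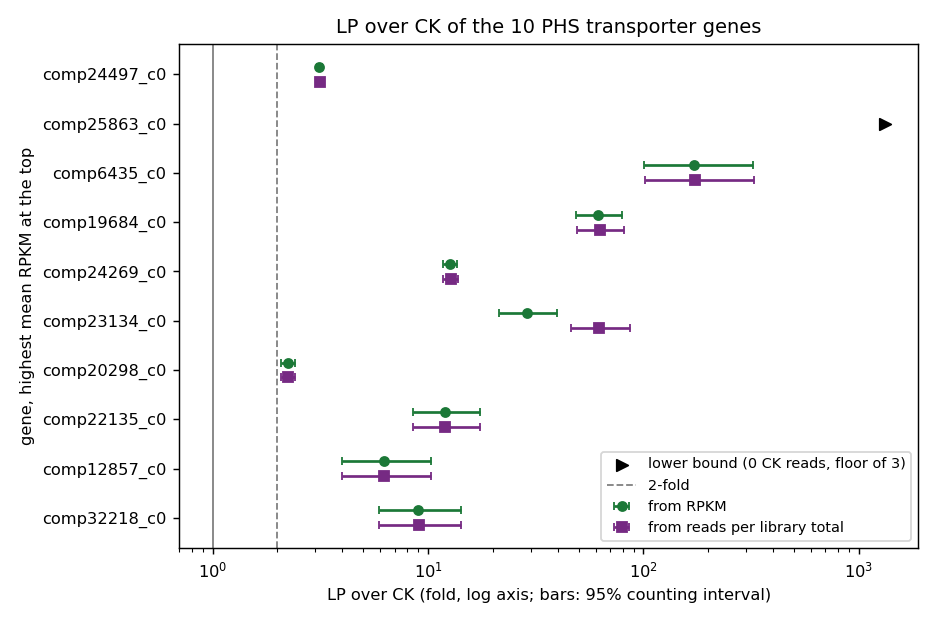
LP over CK for the 10 genes on a log axis, from RPKM (green circles) and from reads per library total (purple squares), with 95% counting intervals. The black triangle is comp25863_c0 set against 3 CK reads, the 1-sided limit of a count of 0, at 1320-fold; the dashed line marks 2-fold, and the only gene whose estimates part is comp23134_c0, at 28.7-fold from RPKM and 62.4-fold from reads.

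The 10 levels were arranged differently in the 2 libraries. In LP, 6 genes lay above 100 RPKM and none below 10 RPKM. In CK, 1 gene lay above 100 RPKM and 7 lay below 10 RPKM. The gene comp24497_c0 made up 21.3% of the summed level in LP and 66.0% in CK. The next transporters by LP level, comp25863_c0 and comp6435_c0, made up 18.7% and 17.2% in LP, against 0% and 0.970% in CK. For comp20298_c0 the share was 2.84% in LP and 12.4% in CK. The inverse Simpson index, which gives the number of equally abundant genes that would be as evenly spread, was 6.59 in LP and 2.16 in CK. Of the summed difference of 1643 RPKM between the libraries, comp25863_c0 held 20.8%, comp6435_c0 19.1%, comp24497_c0 16.15% and comp19684_c0 14.01%. Without comp24497_c0 the other 9 genes reached 1442 RPKM in LP roots and 64.2 RPKM in CK roots, 22.5 times as much.

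**Figure D3:**
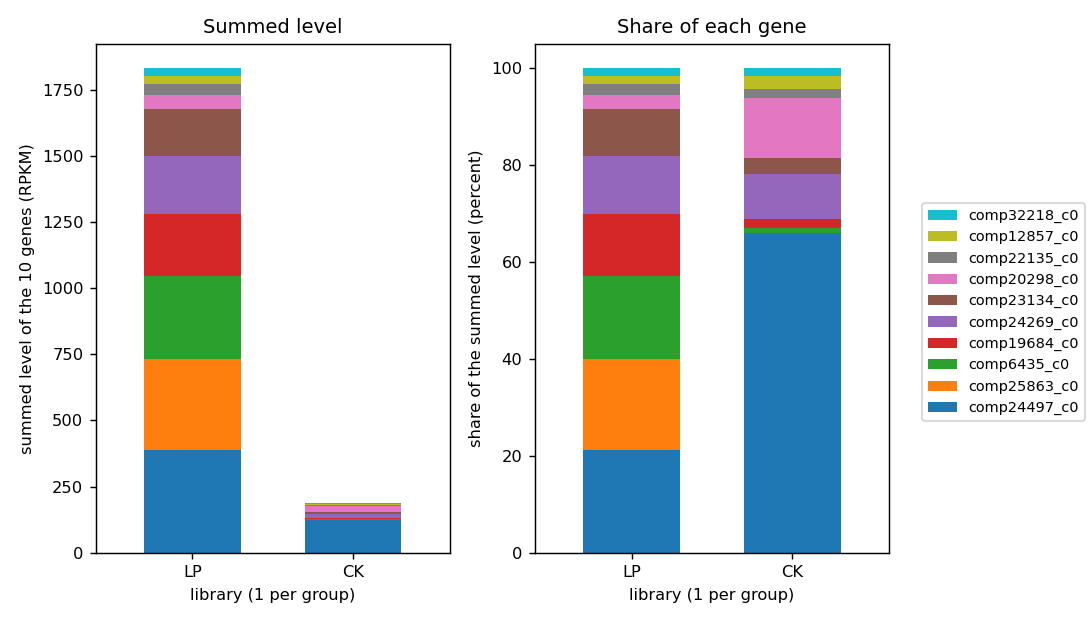
Summed level of the 10 genes in RPKM (left) and the share of each gene in percent (right), in LP and CK, with 1 colour per gene. The LP bar reaches 1831 RPKM and the CK bar 188.6 RPKM; comp24497_c0, at the bottom of each bar, takes 21.3% in LP and 66.0% in CK.

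The order of the levels could be told apart by counting error almost throughout LP and only in part in CK. In LP, the intervals of neighbours in the order were separate except for comp12857_c0 (28.5 to 35.4 RPKM) and comp32218_c0 (26.4 to 31.2 RPKM). In CK the order began with comp24497_c0, comp20298_c0 and comp24269_c0, each with an interval apart from the next. The 6 genes after them, from comp23134_c0 at 6.22 RPKM down to comp6435_c0 at 1.83 RPKM, overlapped with their neighbours. Last came comp25863_c0 with 0 reads, where the interval of comp6435_c0 began at 0.974 RPKM. The spread between plants is unknown.

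All 10 genes carry the GO terms inorganic phosphate transmembrane transporter activity, symporter activity and integral to membrane, as do 9, 8 and 8 of the 10 less abundant PHS genes. The table places 7 in the plasma membrane, all but comp23134_c0, comp20298_c0 and comp32218_c0, and 3 of the less abundant ones. It matches 6 of them to a single protein entry, and those 6, like 2 less abundant PHS genes, also share terms for the plasmodesma, the vacuole and the response to abscisic acid. These are comp24497_c0, comp25863_c0, comp19684_c0, comp24269_c0, comp22135_c0 and comp12857_c0. Within this group the fold ran from 3.13 for comp24497_c0 to 61.6 for comp19684_c0, and comp25863_c0 had no CK reads, so genes with the same best match differed widely. The group reached 1257 RPKM in LP roots and 154 RPKM in CK roots (8.16 times), and the other 4 members 575 RPKM in LP roots and 34.5 RPKM in CK roots (16.6 times). None of the 10 is placed in a KEGG pathway.

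Assembled length differed widely across the members, and the table holds no sequence to show which are whole genes. Lengths ran from 281 to 2218 bases with a median of 914.5, against 610 for all genes. The 3 members longer than 1800 bases reached 661 RPKM in LP roots and 165 RPKM in CK roots (4.00 times). The 7 shorter ones reached 1170 RPKM in LP roots and 23.4 RPKM in CK roots (49.9 times). In 4 members several transcripts were bundled into 1 gene, and the 6 members with a single transcript were all at least 2-fold higher. Near-identical copies can share reads, and short assembled genes can be pieces of a longer transcript, so the values of single members are uncertain to a degree that was not tested.

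The 10 less abundant PHS genes added little to the pool. The described members held 93.4% of the family's summed RPKM in LP roots and 94.7% in CK. Of the 9 less abundant genes whose mean reached 1 RPKM, 8 passed 2-fold upward in LP and 1 passed it downward, with a median log2 ratio of 2.99. They ranged from 1.28 to 27.35 RPKM in LP roots and from 0 to 5.99 RPKM in CK roots, and 5 had 0 reads in CK. Those 5 met the limit of 1 RPKM through LP alone, which fixed their upward call. Over all kept genes the shares were 8.68% upward and 16.2% downward, and nothing is read from the count against them. The tenth, comp696_c0, had 1.38 RPKM in LP roots and 0.31 RPKM in CK roots, on 12 LP reads and 1 CK read. When the 10 genes were taken by LP level alone, all 10 were shared. When the 10 genes were taken by CK level instead, 8 were shared, and comp44357_c0 and comp19803_c0 replaced comp25863_c0 and comp6435_c0. That set had 9 genes past 2-fold upward in LP, 1 downward, and a ratio of sums of 6.11. The 1 downward was comp19803_c0, on 14 LP reads and 24 CK reads. In the authors' deposited table all 10 members carry a yes call, as do 8 of the other PHS genes, against 5.27% of all genes called and higher in LP. These calls use the same 2 levels that selected the members, so nothing is read from them against that share. The highest FDR of a member in the authors' deposited table is 0.04, for comp20298_c0, and that comparison was likewise made on 2 libraries. A yes call there does not rest on a low FDR. All 3416 yes calls have at least a 2-fold ratio and a p-value of at most 0.05 by the authors' comparison. Outside the 10, comp76223_c0, comp132799_c0 and comp196737_c0 carry a yes call at FDR values of 0.09, 0.13 and 0.35.

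Phosphate carriers of other families were read from the same table. The 3 genes of the PiT family, which their GO terms place in the chloroplast inner membrane, had 7.29 RPKM in LP roots and 10.8 RPKM in CK roots, and all stayed within 2-fold. The 7 genes named as solute carrier family 17, phosphate cotransporters of another MFS branch, had 90.9 RPKM in LP roots and 80.3 RPKM in CK roots, again all within 2-fold. Of 4 genes with plastid phosphate translocator terms, which exchange phosphate for sugar phosphates, 2 were at least 2-fold higher and none lower. With 5 added to each RPKM in place of 1 no gene of the 4 was past 2-fold upward, and with 0.1 added comp11420_c0, at 2.86 RPKM in LP roots and 6.26 RPKM in CK roots, was past it downward. The most abundant of them, comp9088_c0, had 243.16 RPKM in LP roots and 124.79 RPKM in CK roots, 1.95-fold higher (1.89 to 2.01). The GO term for phosphate transporter activity was carried by 13 genes outside the PHS family. They include the 3 PiT genes, 3 of family 17 and the 4 plastid translocators, and summed to 407 RPKM in LP roots and 211 RPKM in CK roots. Of these sums the 4 plastid translocators held 260.5 RPKM in LP roots and 134.5 RPKM in CK roots. Of the 13 genes, 4 passed 2-fold upward, 2 of them plastid translocators, and none downward. These counts were 1 and 0 with 5 added to each RPKM, and 4 and 1 with 0.1 added. One of them resembled the members: comp29112_c0, 627 bases long, has no product name but carries the phosphate transporter and symporter terms. It had 70.99 RPKM in LP roots and 8.13 RPKM in CK roots, 8.73-fold higher (7.03 to 10.98), and its mean of 39.6 RPKM would have ranked 7th in the family. It was singled out after its values were seen.

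Genes that act on PHT1 proteins in Arabidopsis were looked up by annotation. The gene comp19465_c0 carries GO terms for phosphate transport, for vesicle transport out of the endoplasmic reticulum and for phosphate starvation, the role that PHF1 has in Arabidopsis. It had 98.47 RPKM in LP roots and 19.32 RPKM in CK roots, 5.10-fold higher (4.69 to 5.54). The table names 2 ubiquitin-conjugating enzymes of the E2 O type, to which PHO2 belongs. Of these, comp22032_c0 had 16.80 RPKM in LP roots and 246.22 RPKM in CK roots, 14.7-fold lower (14.1 to 15.2), and comp21196_c0 had 9.33 RPKM in LP roots and 16.02 RPKM in CK roots, within 2-fold on the log2 scale used.

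Genes annotated as proton pumps did not share a direction. Of 16 genes named H+-transporting ATPase, 4 were at least 2-fold higher and 5 lower, with a median log2 ratio of -0.23, against 4 higher and 3 lower with 5 added, and they summed to 530 RPKM in LP roots and 751 RPKM in CK roots. Of the 4 higher genes, 3 had 0 reads in CK, which fixed their upward call. The highest ratio was that of comp30027_c0, with 43.69 RPKM in LP roots and 0 reads in CK, and the lowest that of comp15287_c0, with 20.99 RPKM in LP roots and 72.22 RPKM in CK roots. Of 27 genes of vacuolar proton pumps and pyrophosphatases, 3 were higher, 1 was lower and 23 stayed within 2-fold. Among these, 10 were named only inorganic pyrophosphatase, a name that does not tell whether they pump protons. Among 58 other MFS genes, the 7 of solute carrier family 17 included, 8 passed 2-fold upward in LP and 4 downward (median 0.15). Terms for nitrate, ammonium, sulfate or potassium transport matched 51 genes, not all of them named as carriers of these nutrients. By product name, 10 were cyclic nucleotide gated channels, 6 oligopeptide transporters and 1 a lysophospholipase, and 13 had no name. Of the 51, 10 passed 2-fold upward in LP and 8 downward (median -0.16). Those upward included 5 named ammonium transporters and 4 named oligopeptide transporters. The list held 7 ammonium transporters, of which 1 passed downward, with a median log2 ratio of 2.11. They summed to 143.5 RPKM in LP roots and 109.3 RPKM in CK roots. After centring on the median of all kept genes, 11 of the 51 passed upward and 4 downward. With 5 added to each RPKM, 3 passed in each direction, and of the MFS genes 5 passed upward and 3 downward. The 2 lists share 3 genes named as nitrate/nitrite transporters, of which 2 passed 2-fold downward. One of these, comp26314_c0, was the lowest of both lists, with 1.85 RPKM in LP roots and 81.38 RPKM in CK roots. The highest of the second list was the ammonium transporter comp16516_c0, with 72.30 RPKM in LP roots and 0.14 RPKM in CK roots.

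**Figure D4:**
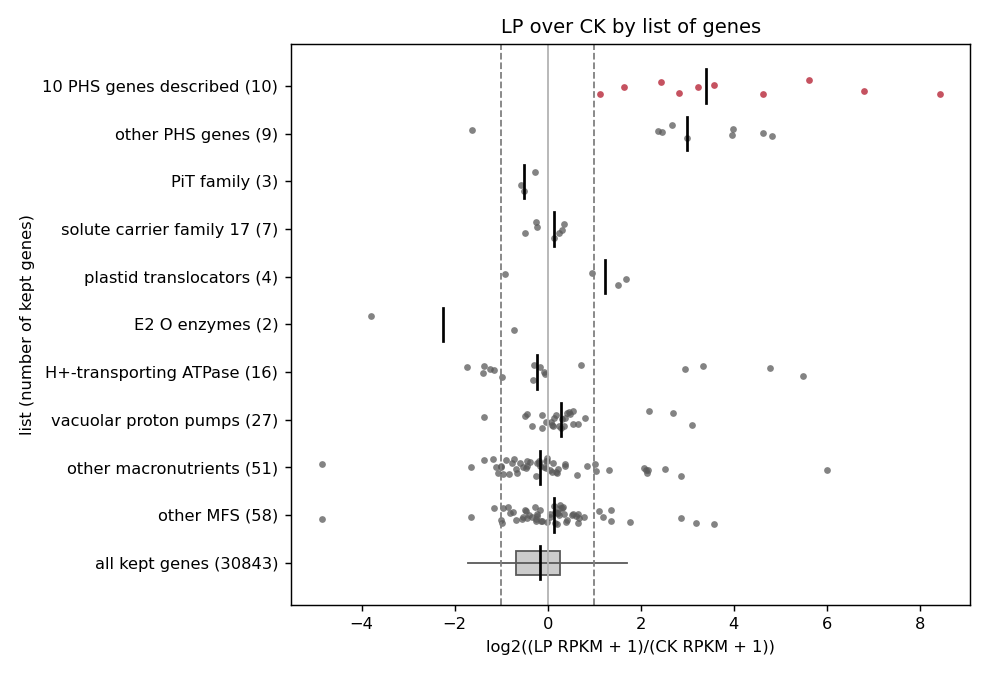
The log2 ratio of LP over CK RPKM, with 1 added to each value, for the 10 transporters (red) and for genes of other lists (grey), with the median of each as a black bar; dashed lines mark 2-fold and the bottom box spans the 25th to 75th percentile of all kept genes, with a line from the 5th to the 95th. The 10 transporters lie between 1.13 and 8.42 with a median of 3.41, while the 3 PiT and 7 solute carrier family 17 genes lie within 2-fold.

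Among 4592 other genes with a product name and a mean of at least 10 RPKM, 5 had the pair of LP and CK levels closest to the medians of the transporters, which were 199 RPKM in LP roots and 4.45 RPKM in CK roots. The measure was the distance on log2 axes over the 2 libraries, so likeness here means only a similar level in each. The closest was the endoglucanase comp5610_c0, an enzyme that cuts cellulose, at a distance of 0.91, with 161.06 RPKM in LP roots and 8.84 RPKM in CK roots. Next were sulfoquinovosyltransferase comp16284_c0, which makes the phosphorus-free sulfolipid (0.94), and chitinase comp26126_c0 (1.03). A galactolipid synthase, 1,2-diacylglycerol 3-beta-galactosyltransferase comp9685_c0, followed at 1.31, with 112.63 RPKM in LP roots and 10.04 RPKM in CK roots. The fifth was fructose-bisphosphate aldolase comp9834_c0, an enzyme of glycolysis, at 1.38.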

How the data were processed

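The deposited table gives 1 row per assembled gene. Estimated counts, not normalized and not always whole, were deposited for both libraries, with RPKM values that the authors scaled to gene length and depth, per the file headers. In all 25479 genes that reach 1 RPKM in LP and in CK, the log2 fold change that the authors deposited is that of their RPKM ratio, within 0.01. The deposited p-values and FDR come from the authors' own comparison, rounded to 2 decimals. Per the labels' protocols, libraries were made from root RNA, but the wording covers RNA with and without a poly(A) tail, so the fraction sequenced is uncertain. The assembler, the aligner and the counter were not given in the sources used here.

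From these, ratios were computed as log2((LP + 1)/(CK + 1)) on RPKM where the mean reached 1 RPKM, and genes past 2-fold in either direction were counted. No test was run, since LP and CK have 1 library each. Folds are ratios of RPKM. Clopper-Pearson 95% intervals from the reads, rounded to whole numbers, stand beside them, and levels have exact Poisson intervals. A count of 0 was given a floor of 3 reads in that library, a 1-sided limit, while intervals are 2-sided. The calculation was tested on simulated data. Python 3.11.15, numpy 2.4.6, pandas 2.3.3 and scipy 1.17.1 were used.

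The members and lists were chosen with earlier results of these data known. Lists were search patterns on the annotation text. The bacterial pattern was narrowed because the wider one also matched genes that respond to bacterial products. Patterns for PHO1 and SPX domain genes, PHF1, mitochondrial phosphate carriers and the PiT family matched 0 kept genes as first worded. The list of bacterial biosynthesis terms, the PiT list, the solute carrier family 17 list and the searches of GO terms were worded after the table was seen. Named genes are the 10 members, the next PHS genes by mean level, the highest and lowest gene of each list among those whose mean reached 2 RPKM, and the 5 genes nearest in level, of which some are left unprinted. Other genes named were chosen after their values were seen.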

Additional observations from a re-analysis of the deposited data

How the results depend on the processing

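All 10 members stayed at least 2-fold higher in LP under each alternative that kept them, namely pseudocounts of 0.1 and 5, centring on the median of all kept genes, median-of-ratios size factors and reads scaled to library depth alone (CPM). The 50 recomputed ratios kept their direction and ran from 1.01 to 12.78 on the log2 scale. The 7 members of at least 500 bases and the 6 with 1 transcript were likewise all higher. These subsets, and the one without comp24497_c0, were chosen after seeing the data. The median log2 ratio of 3.41 was 3.60 and 2.88 with pseudocounts of 0.1 and 5, 3.57 after centring, 3.84 with size factors, 3.34 in CPM, 3.58 for members of at least 500 bases and 2.63 for members with 1 transcript. The ratio of sums of 9.71 was 10.83 after centring, 6.92 with size factors, 5.95 in CPM, 8.15 for members of at least 500 bases, 5.32 for members with 1 transcript and 22.47 without comp24497_c0. Sums of reads weight long genes more than sums of RPKM do. The median of all kept genes was -0.16 in RPKM and 0.03 with size factors. Of all PHS genes, 18 were at least 2-fold higher; with at least 10 reads in each library this was 10 of 11, since fewer genes were counted. Over all genes, the 2676 higher and 4996 lower became 1530 and 1008 with a pseudocount of 5, and 3220 and 3980 after centring. No paired analysis was possible because each group has 1 library. Depth in CK limits the folds of members with under 50 CK reads.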

Other observations

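Among the 16 genes named H+-transporting ATPase, the 4 that were at least 2-fold higher in LP were nearly unread in CK. These were comp30027_c0 with 43.69 RPKM in LP roots and no CK reads (at least 135-fold higher), comp30691_c0 with 29.84 RPKM in LP roots and 0.12 RPKM in CK roots, comp4748_c0 with 9.18 RPKM in LP roots and no CK reads, and comp34322_c0 with 6.79 RPKM in LP roots and no CK reads. The 12 others summed to 441 RPKM in LP roots and 751 RPKM in CK roots, and the most abundant, comp27190_c0, had 137.23 RPKM in LP roots and 307.87 RPKM in CK roots. The genes comp30027_c0, comp4748_c0 and comp34322_c0 were 562, 456 and 613 bases long. They met the limit of 1 RPKM through LP alone, which fixed their upward call.

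One PHS gene outside the 10 differs from the rest in its annotation. The gene comp66471_c0 alone in the family carries GO terms for manganese transport and polyphosphate metabolism. It lacks the symport term, which 8 of the 10 less abundant PHS genes carry. It had 14.79 RPKM in LP roots, on 400 reads, and 0 reads in CK, where a library at its LP level would hold 147 reads. The organism it comes from was not tested.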
